A study of Macaca mulatta with 6 samples.

Results

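Genes of glycolysis and lactate metabolism were examined in the retinas of 3 male rhesus macaques (Macaca mulatta) aged 8 to 10 years, 24 h after the optic nerve of one eye had been irradiated within the orbit by gamma knife. Of 41 genes listed for the pathway, 29 carried a probe set with that single gene symbol on the Affymetrix Rhesus Macaque Genome Array, out of 14132 named genes in all, and each was represented by its probe set of highest mean signal. They comprise hexokinases, the enzymes from glucose phosphate to pyruvate, lactate dehydrogenase, lactate and glucose carriers, the kinases of pyruvate dehydrogenase, a fructose bisphosphate regulator, 2 genes of the glycogen branch and the pentose phosphate pathway, and a creatine kinase. The other 12 genes (PFKM, PGK1, PGAM1, PKM2, LDHB, PDHA1, PDHB, PFKFB2, PFKFB4, PGD, TKT and CKMT1A) had no such probe set and were not analysed here; PKM2 is an older symbol of PKM, and PGK1 stood only on a probe set shared with 2 other loci.

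The 3 treated retinas lay on the side of a nerve prescribed 15 Gy. The 3 control retinas were the opposite retinas of the same animals. The labels number the retinas but do not name the animal, so same-numbered retinas were assumed to come from the same animal. The eyes themselves were also exposed, to 3 Gy (treated) or 1 Gy (control), so the control retinas were neither unirradiated nor from separate animals, and a response shared by both eyes does not appear in the difference. Dose to the nerve and dose to the retina itself cannot be told apart. Each array held RNA from the temporal part of 1 retina, dissected without the pigment epithelium, so no retina was measured on more than 1 array.

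Glycolysis splits glucose into pyruvate, and lactate dehydrogenase turns pyruvate into lactate. The retina is known for aerobic glycolysis: photoreceptors make much lactate even when oxygen is present. Lactate crosses membranes through monocarboxylate transporters, several of which need the chaperone basigin to reach the cell surface. In the retina lactate passes between photoreceptors, Müller glia and the pigment epithelium. Pyruvate dehydrogenase kinases inhibit pyruvate dehydrogenase, which oxidises pyruvate inside mitochondria, and so steer pyruvate towards lactate.

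Values are deposited log2 MAS 5.0 signals, a measure of probe set brightness, and they are compared only within a probe set. The median log2 signal of the arrays ran from 6.44 to 7.03, and 22.6% to 29.7% of probe sets were under 5, the largest share in treated retina 2. Photoreceptor markers were bright on every array, and GFAP, the intermediate filament of reactive glia, was higher in treated retinas by 2.14 on the log2 scale (SE 0.235, adjusted p = 0.0303, limma with Benjamini-Hochberg adjustment), the same way in 3 of 3 pairs. A dimmer GFAP probe set differed by 0.10. By limma, the adjusted p of the brighter one was 1.31e-05 without pair 2 and 1.08e-04 without pair 3. It was 0.0179 with quantile normalization, 0.0120 with arrays centred on their median and 0.0365 with a mean signal of at least 5. Other limma fits gave 0.851 without the pairing, 0.158 without pair 1 and 0.854 without a trend in the variance. With values under 5 set to 5 limma gave 0.749, and the methods' paired t-test gave 0.879. That call thus rests on the fit chosen.

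No gene of the list passed the adjusted threshold of 0.05, and the genes as a group stood at about the same signal in treated and control retinas. Of the 29, 15 lay above 0 and 14 below 0, and the median difference was 0.00095 on the log2 scale (treated minus control), beside 0.032 over all named genes. With each array centred on its median, 24 lay above 0 and 5 below, the median of the list was 0.098 and that of all named genes 0.13, so the split depends on the scaling while the list stayed near the other genes. In the deposited scaling the median difference over the list was 0.016 in pair 1, 0.14 in pair 2 and -0.05 in pair 3. The smallest adjusted p was 0.388, for PDK4 (limma, paired by replicate number, Benjamini-Hochberg over all 52024 probe sets). Of these probe sets, 58 or 0.111% were called.

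Before adjustment, 2 of the 29 genes were higher at a p under 0.05, SLC2A3 and TALDO1, where 5.02% of all named genes were. PDK4, HK2, SLC16A1 and SLC16A8 made 4 lower genes, where 3.01% of all named genes were. Among the 1534 named genes at least as bright as the median gene of the list, these shares were 6.71% higher and 5.93% lower. With the methods' paired t-test the counts were 3 higher and 3 lower before adjustment, against 4.21% and 2.84% of all named genes, and 0 after it. The genes were not all the same: PDK4, SLC2A3 and TALDO1 were below 0.05 by limma and by the methods' paired t-test. HK2, SLC16A1 and SLC16A8 were above it by the latter, at unadjusted p = 0.0512, 0.202 and 0.291. CKB, PFKFB3 and TPI1 were below it by the latter alone, at unadjusted p = 0.00468, 0.0248 and 0.0269. Pair by pair, 5 genes were higher in 3 of 3 pairs (19.3% of all named genes were) and 5 were lower in 3 of 3 pairs (13.6% were). Every treated retina lay above every control retina for 1 gene, TALDO1 (4.30% of all named genes), and below for none (2.70%).

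The signals allow bounds as well as tests. The 95% interval of the fold stayed within 2-fold either way for 23 of the 29 genes, against 65.0% of all named genes. The list held many bright probe sets, and among the 1534 named genes at least as bright as its median gene 99.0% had such an interval. The median size of the difference over the list was 0.093 and the median SE 0.119. The spread between animals (SD of the 3 pair means) was larger than the treated-control difference in 19 genes, 65.5% of the list and 68.1% of all named genes.

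**Figure D1:**
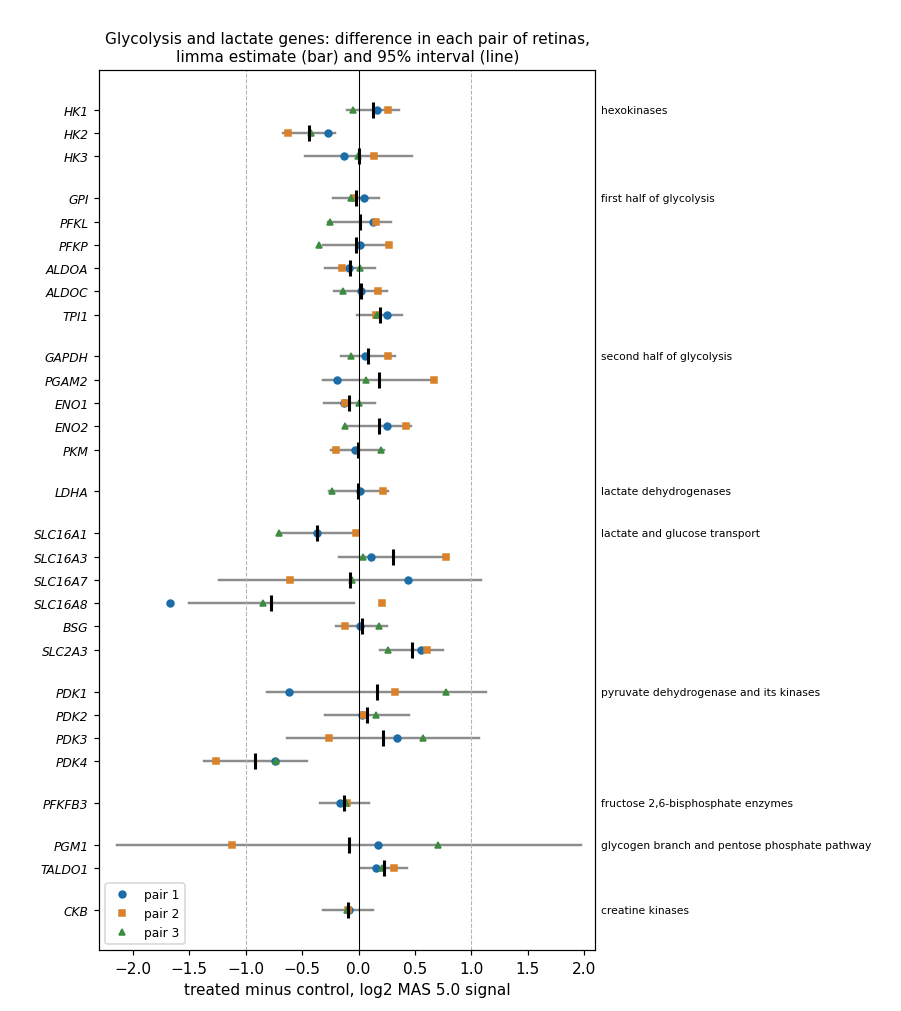
Difference between treated and control retina in each of the 3 pairs (points), with the limma estimate (bar) and its 95% interval (line), on the log2 signal scale for the 29 measured genes, grouped by role. Most genes sit near 0, the 3 points of PDK4 and of HK2 lie below 0, those of SLC2A3 lie above 0, and the points of SLC16A8 run from -1.67 to 0.21.

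Hexokinases take the first step, the phosphorylation of glucose. HK2, a form carried by photoreceptors, had log2 signals of 11.79, 12.20 and 12.59 in control retinas 1 to 3 and of 11.52, 11.58 and 12.16 in the treated retinas of the same animals. Each treated retina was below its own control, by 0.27 to 0.62 in size, although the groups overlap because animal 3 was high in both eyes. The difference was -0.44 (SE 0.100, 95% interval -0.67 to -0.21), a treated-to-control ratio of 0.738, with an unadjusted p of 0.00260 and an adjusted p of 0.424 by limma, and an unadjusted p of 0.0512 by the methods' paired t-test.

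HK1, the hexokinase of most tissues, stood at 13.03, 13.10 and 13.31 in control and 13.19, 13.37 and 13.26 in treated retinas, higher in pairs 1 and 2 and lower in pair 3. Its difference was 0.13 (SE 0.098, adjusted p = 0.798 by limma), and its 3 dimmer probe sets gave -0.03, -0.05 and 0.09, so they did not share a sign. HK3, the hexokinase of blood leukocytes, stood at 7.45 to 8.02 in control and 7.55 to 8.02 in treated retinas and differed by 0.00095 (SE 0.203).

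Rod markers stood lower beside HK2. Of 12 listed, 9 were measured; 0 lay above 0, 8 were lower in 3 of 3 pairs and 4 had an unadjusted p under 0.05, with a median difference of -0.21, and the log2 of their summed signal was 17.87 to 18.08 in control and 17.65 to 17.96 in treated retinas. CNGB1, a subunit of the rod channel, differed by -0.59 (adjusted p = 0.371, limma), whereas NR2E3, a rod transcription factor, differed by -0.0003. With arrays centred on their median 8 of the 9 rod markers stayed below 0, with a median of -0.11. For cones, 7 of 8 markers were measured, with summed signals of 15.82 to 16.18 in control and 15.65 to 16.08 in treated retinas. The part of these markers in the result for HK2 was not tested, and in bulk retina fewer cells of a type and less RNA per cell cannot be told apart.

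From glucose phosphate to triose phosphate no gene had an unadjusted p under 0.05, and all 6 had 95% intervals within 2-fold. GPI, the isomerase that makes fructose phosphate, differed by -0.02 (SE 0.088), with 0.14 and -0.30 on its dimmer probe sets. The phosphofructokinase subunits PFKL and PFKP, which form the committed step, differed by 0.0085 and -0.02, and the 95% interval for PFKL ran from -0.28 to 0.29. Each was higher in 2 pairs and lower in pair 3. The aldolases ALDOA and ALDOC, which split fructose bisphosphate, differed by -0.08 and 0.02, and the dimmer ALDOC probe set by -0.18.

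TPI1, which interconverts the triose phosphates, stood at 12.23, 13.36 and 13.19 in control retinas 1 to 3 and at 12.48, 13.51 and 13.35 in treated ones. It was higher in 3 of 3 pairs, while animal 1 was lower than the others in both eyes by more than any treated-control gap. The difference was 0.19 (SE 0.086, adjusted p = 0.751, limma). Its dimmer probe set stood at 7.41, 6.34 and 5.96 in control and 7.45, 8.16 and 7.51 in treated retinas, a difference of 1.14 (SE 0.382, unadjusted p = 0.0184, adjusted p = 0.693, limma), higher in 3 of 3 pairs but by 0.04 in pair 1. The probe sets thus shared a direction and differed in size.

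From triose phosphate to lactate the differences were of similar size. GAPDH, which makes the first NADH of the pathway and is often taken as a reference gene, stood at 14.53, 14.29 and 14.42 in control and 14.59, 14.55 and 14.35 in treated retinas. The groups overlap, and the ratio of treated to control was 1.06 with a 95% interval of 0.896 to 1.25. LDHA, the lactate dehydrogenase subunit that favours lactate production, stood at 14.51, 14.37 and 14.65 in control and 14.53, 14.58 and 14.42 in treated retinas. Pair 2 was higher and pair 3 lower by about the same amount, and the ratio was 0.999 with a 95% interval of 0.832 to 1.20.

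ENO2, the neuronal enolase, stood at 11.51, 11.78 and 11.65 in control and 11.76, 12.20 and 11.53 in treated retinas, higher in pairs 1 and 2 and lower in pair 3, a difference of 0.18 (SE 0.119, adjusted p = 0.769, limma). ENO1, the enolase of most cells, differed by -0.08 (SE 0.097), and its dimmest probe set by -1.06 (unadjusted p = 0.0570), with treated retina 2 at 4.85. PGAM2, the muscle form of phosphoglycerate mutase, differed by 0.18 (SE 0.212), with 0.67 of it in pair 2 and -0.19 in pair 1.

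PKM, pyruvate kinase, differed far more between animals than between eyes. Its signals were 13.67, 11.35 and 11.39 in control retinas 1 to 3 and 13.64, 11.15 and 11.59 in treated ones, so both eyes of animal 1 were above all the other retinas. The treated-control difference was -0.0092 (SE 0.103), and the pair means spanned 2.40 on the log2 scale, 5.29-fold. Among the 11887 named genes with a mean signal of at least 5, 177 (1.49%) had a span at least as large, and the median span was 0.515.

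The same animal was highest on the other PKM probe sets. The second stood at 12.81, 9.70 and 9.23 in control and 12.70, 8.86 and 9.96 in treated retinas, and the dimmest at 6.89, 5.44 and 4.48 in control and 7.13, 2.23 and 4.11 in treated retinas. The dimmest differed by -1.11 between treated and control (SE 0.791), most of it from treated retina 2. PDK1, a pyruvate dehydrogenase kinase, had the next widest span, 1.58 or 2.99-fold, which 5.61% of the named genes reached. At the other end LDHA spanned 0.055, PGAM2 0.058 and ALDOA 0.095. Each animal's retinas were measured once each, so animal, dissection and array cannot be told apart in these spans.

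**Figure D2:**
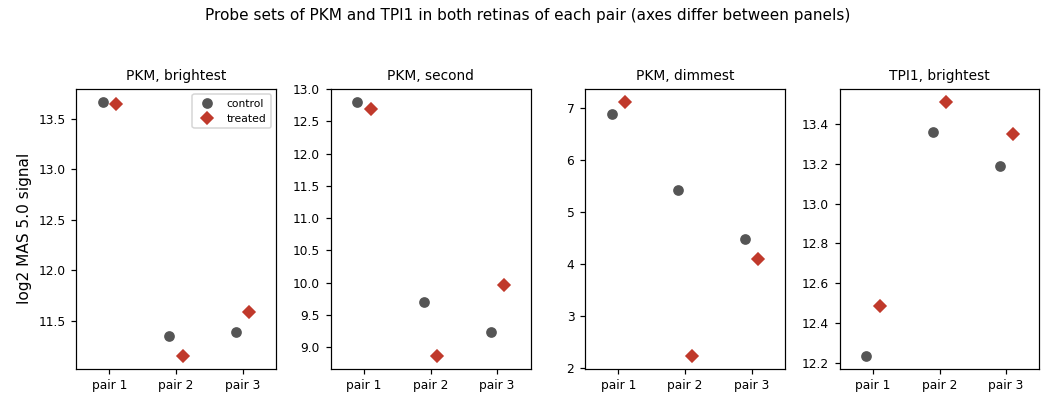
Log2 signal of the 3 PKM probe sets and of the brightest TPI1 probe set in the control (circle) and treated (diamond) retina of each pair, with a separate vertical axis per panel. Animal 1 is highest in both eyes for PKM, at 13.67 and 13.64 on the brightest probe set, and lowest in both eyes for TPI1, at 12.23 and 12.48.

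Among the carriers, SLC16A1 and SLC16A8 were lower and SLC2A3 higher in treated retinas before adjustment. SLC16A1 encodes MCT1, a lactate transporter of photoreceptors, glia and the pigment epithelium. Its signals were 12.01, 11.55 and 11.70 in control retinas 1 to 3 and 11.64, 11.53 and 10.99 in the treated ones. All 3 pairs were lower, pair 2 by only 0.03 in size, and the groups overlap by way of control retina 2. The difference was -0.37 (SE 0.133, 95% interval -0.68 to -0.06, unadjusted p = 0.0252, adjusted p = 0.716, limma). Without pair 2 it was -0.54 with an adjusted p of 0.0217, a fit on 2 pairs in which the call was gained by leaving out the pair with the smallest difference.

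The other 3 SLC16A1 probe sets pointed the same way. Their differences were -0.29 (unadjusted p = 0.0152), -0.47 (unadjusted p = 0.0142) and -0.74 (unadjusted p = 0.210), and the first 2 of these were lower in 3 of 3 pairs with adjusted p = 0.676 each by limma. Probe sets of 1 gene read the same RNA and are not replicates of the animals. By the methods' paired t-test the brightest probe set had an unadjusted p of 0.202. Müller glia markers went both ways in the same retinas. Of 8 listed, 6 were measured, 3 above 0 and 3 below 0, with a median of -0.14 and summed log2 signals of 16.34 to 16.72 in control and 16.25 to 16.67 in treated retinas. The summed signal differed by -0.09, 0.03 and -0.06 in pairs 1 to 3. VIM differed by 0.17 and was higher in 3 of 3 pairs, and DKK3 differed by 0.0072. RLBP1, a retinoid carrier, differed by -0.45 (unadjusted p = 9.29e-04), KCNJ10, a potassium channel, by -0.54 (unadjusted p = 0.00141) and GLUL, glutamine synthetase, by -0.28 (unadjusted p = 0.0246), each lower in 3 of 3 pairs, while SLC1A3, a glutamate carrier, differed by 0.58 (unadjusted p = 4.33e-04) and was higher in 3 of 3. The rod markers described beside HK2 and most of the pigment epithelium markers described beside SLC16A8 stood lower. The part of these markers in the result for SLC16A1 was not tested.

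SLC16A3, which encodes the lactate exporter MCT4, stood at 7.98, 8.0 and 7.90 in control and 8.09, 8.78 and 7.94 in treated retinas. It was higher in 3 of 3 pairs, mostly in pair 2, and the difference of 0.31 (SE 0.209, adjusted p = 0.776, limma) was accompanied by 0.12 and 0.27 on its dimmer probe sets. SLC16A7, which encodes MCT2, was dim at 5.33 to 5.98 and differed by -0.08 (SE 0.499), a precision that leaves a fold of 0.424 to 2.12 inside the 95% interval. BSG, basigin, differed by 0.03 (SE 0.097), with -0.05 and -0.0021 on its other probe sets.

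SLC16A8 encodes MCT3, the lactate transporter on the basal face of the pigment epithelium, a layer that the dissection was meant to leave behind. Its signals were 8.72, 8.85 and 9.33 in control retinas 1 to 3 and 7.05, 9.06 and 8.48 in treated ones. Treated retina 1 was the lowest of the 6, and pair 2 ran the other way: the pairs differed by -1.67, 0.21 and -0.85. The difference was -0.77 (SE 0.314, unadjusted p = 0.0410, adjusted p = 0.734, limma; unadjusted p = 0.291 by the methods' paired t-test), and without pair 2 it was -1.26 with an adjusted p of 0.0139, a fit that leaves out the pair of opposite sign. Its second probe set gave -1.66, 0.73 and -1.40 in the pairs.

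Pigment epithelium markers were detected in these retinas. TYRP1, RDH5, RGR and BEST1 showed the order of pairs seen for SLC16A8, and the other measured markers did not. Among the latter, MLANA and SERPINF1 were lower in 3 of 3 pairs. Of 13 listed, 9 were measured, 1 above 0 and 8 below 0, with a median difference of -0.33 and none at an unadjusted p under 0.05; RPE65, TTR and LRAT were not analysed here. The log2 of their summed signal was 12.84 to 13.47 in control and 12.42 to 13.15 in treated retinas, and it differed by -0.75, 0.27 and -0.32 in pairs 1 to 3. BEST1, a chloride channel of that layer, stood at 9.18, 9.38 and 9.43 in control and 7.23, 10.14 and 8.79 in treated retinas. RDH5 and RGR, which serve the visual cycle there, were also lowest in treated retina 1 and higher in the treated retina of pair 2 alone on their brightest probe sets, and a dim RDH5 probe set differed by 0.63. The part of these markers in the result for SLC16A8 was not tested.

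**Figure D3:**
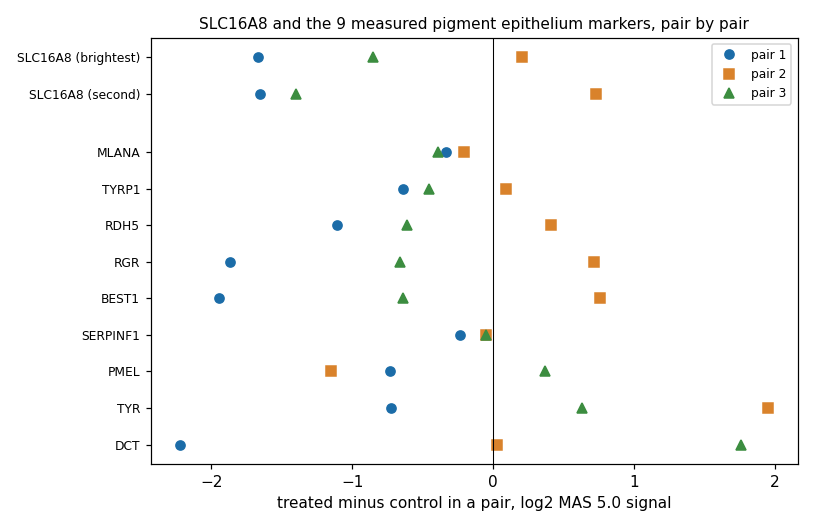
Treated minus control log2 signal in each pair for both SLC16A8 probe sets and for the 9 measured pigment epithelium markers. SLC16A8, TYRP1, RDH5, RGR and BEST1 share negative values in pairs 1 and 3 and a positive value in pair 2. MLANA and SERPINF1 are below 0 in all 3 pairs, and TYR, DCT and PMEL follow other orders.

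SLC2A3 encodes GLUT3, the high-affinity glucose carrier of neurons that leukocytes also use. It stood at 9.08, 10.14 and 9.57 in control retinas 1 to 3 and at 9.64, 10.75 and 9.83 in treated ones. Each treated retina was above its own control, while the groups overlap because animal 2 was high in both eyes. The difference was 0.47 (SE 0.119, 95% interval 0.19 to 0.75), a ratio of 1.39, with an unadjusted p of 0.00470 and an adjusted p of 0.536 by limma. Of its other probe sets, one gave 0.61 (unadjusted p = 9.35e-04, adjusted p = 0.270, the smallest of any probe set of the list), another 0.52 and another 0.05.

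Most leukocyte, microglial and ganglion cell markers stood higher in the same treated retinas. Of 13 leukocyte markers 9 were measured, 8 above 0, 6 higher in 3 of 3 pairs and 3 with an unadjusted p under 0.05 (limma). CD79A differed by -1.61. It was dim, at 1.67 to 6.70, as were S100A12 (2.63 to 5.03), FCN1 (3.59 to 6.56) and MS4A1 (2.29 to 6.14). The summed log2 signal of the 9 was 11.04 to 11.89 in control and 12.06 to 13.60 in treated retinas. LYZ, lysozyme, was part of that sum and differed by 1.27 (adjusted p = 0.0745, limma). That sum is mostly LYZ, and over the other 8 markers it was 8.22 to 9.28 in control and 9.01 to 9.72 in treated retinas, above the control in each pair. Of 10 microglial markers 9 were measured, 7 above 0, with summed signals of 11.21 to 11.36 in control and 11.52 to 11.64 in treated retinas. Of 11 ganglion cell markers 6 were measured, 5 above 0, with summed signals of 14.63 to 14.87 and 14.74 to 15.07. HK3, the leukocyte hexokinase, had a 95% interval of -0.47 to 0.47 in the same retinas, which reaches the difference of SLC2A3. The part of these markers in the result for SLC2A3 was not tested.

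PDK4 had the smallest p of the list among the brightest probe sets. It encodes a kinase that shuts off pyruvate dehydrogenase and is induced by fasting in many tissues. Its signals were 8.34, 8.19 and 8.99 in control retinas 1 to 3 and 7.59, 6.93 and 8.26 in treated ones. Every treated retina was below its own control, by 0.74, 1.26 and 0.74 in size, and the groups overlap only through treated retina 3 and control retina 2. The difference was -0.92 (SE 0.197, 95% interval -1.37 to -0.46), a ratio of 0.530, with an unadjusted p of 0.00189 and an adjusted p of 0.388 by limma.

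The other kinases of the family stood above 0. PDK1 differed by 0.16 (SE 0.417), with -0.62, 0.32 and 0.78 in the pairs, PDK2 by 0.07 (SE 0.161), higher in 3 of 3 pairs by 0.03 to 0.16, and PDK3 by 0.22 (SE 0.367). These are separate comparisons, and the gap between PDK4 and the others was not tested. Skeletal muscle is a tissue in which PDK4 and PGAM2 are abundant. PGAM2 differed by 0.18 (SE 0.212), with -0.19, 0.67 and 0.06 in pairs 1 to 3, and its gap to PDK4 was not tested. Of 11 muscle markers 6 were measured, 0 above 0, with summed log2 signals of 8.84 to 10.37 in control and 8.54 to 10.15 in treated retinas and pair differences of -0.30, -1.12 and -0.22. TNNI2, a fast-muscle troponin, was under 5 on every array, and CKM, muscle creatine kinase, stood at 6.60 to 8.75 in control retinas and at 4.05 in treated retina 2. With quantile normalization or with arrays centred on their median, 5 of the 6 lay below 0. The part of these markers in the result for PDK4 was not tested.

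**Figure D4:**
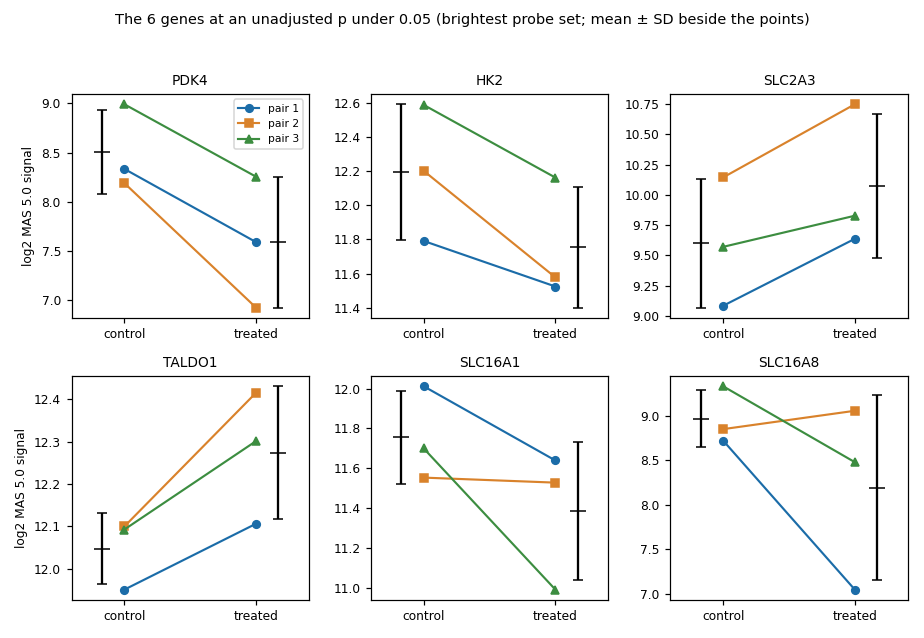
Log2 signal in the control and treated retina of each pair (joined points) for the 6 genes with an unadjusted p under 0.05, with the mean and SD of each group beside the points and a separate vertical axis per panel. All 3 lines slope down for PDK4, HK2 and SLC16A1 and up for SLC2A3 and TALDO1, and for SLC16A8 pair 2 runs against the other pairs.

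TALDO1, the transaldolase of the non-oxidative pentose phosphate pathway, was the only gene of the list whose groups did not overlap on its brightest probe set. On the dimmer TPI1 probe set they did not overlap either. It stood at 11.95, 12.10 and 12.09 in control and 12.11, 12.42 and 12.30 in treated retinas, so the lowest treated retina lay just above the highest control retina. The difference was 0.23 (SE 0.088, 95% interval 0.02 to 0.43, unadjusted p = 0.0335, adjusted p = 0.730, limma). PFKFB3, which makes the activator of phosphofructokinase, stood at 10.34, 11.33 and 10.80 in control and 10.18, 11.23 and 10.69 in treated retinas. It was lower in 3 of 3 pairs by 0.10 to 0.16 in size, an estimate of -0.13 (SE 0.092, adjusted p = 0.790, limma), beside a span of 1.02 between animals.

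CKB, the cytosolic creatine kinase that buffers ATP in retina and brain, stood at 14.75, 15.09 and 15.20 in control and 14.66, 15.00 and 15.09 in treated retinas. All 3 pairs were lower by a similar amount, -0.08, -0.09 and -0.10, and the estimate was -0.09 (SE 0.096, adjusted p = 0.847, limma), an SE that limma draws in part from other probe sets of like brightness. The methods' paired t-test, which uses these 3 pairs alone, gave an unadjusted p of 0.00468 and an adjusted p of 0.874. Centring each array on its median turned the estimate to 0.0038. PGM1, which links glucose phosphate to glycogen, was under 5 on every array, at 1.50 to 3.41, and its difference of -0.09 (SE 0.884) carries no information at this signal.

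Probe sets of the same gene were a further check on these values. The 29 genes carried 54 probe sets, of which 4 stood higher and 6 stood lower with an unadjusted p under 0.05, where 2.97% and 3.77% of all probe sets did. Of the 13 genes with several probe sets, 9 had the same sign on all of them, among them SLC16A1, SLC16A8 and SLC2A3, and HK1, GPI, ALDOC and BSG had mixed signs. PDK4, HK2 and TALDO1 had a single probe set, so their values rest on it alone.

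**Figure D5:**
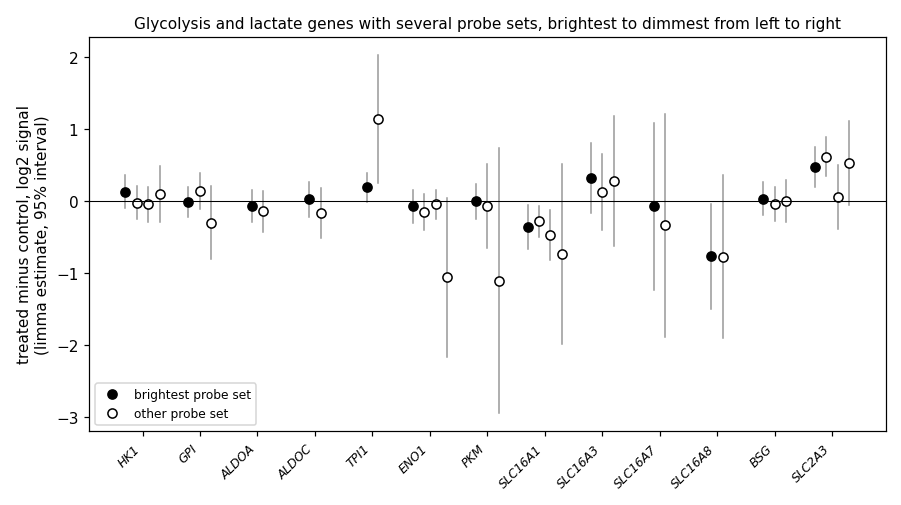
Treated minus control log2 signal (limma estimate, with its 95% interval as a line) for each probe set of the 13 genes with several, ordered from brightest (filled) to dimmest. All 4 SLC16A1 and both SLC16A8 probe sets lie below 0 and all 4 SLC2A3 probe sets above 0, and the intervals widen for dim probe sets such as the last ones of ENO1 and PKM.

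Neighbouring pathway genes were read from 10 further lists of 107 genes, of which 71 were measured. None passed the adjusted threshold (smallest adjusted p 0.464, limma). Before adjustment 4 were above 0 and 2 below it with a p under 0.05, where 5.02% and 3.01% of all named genes were, and the median difference of the 71 was -0.01. For each list, the genes named are those with the largest moderated statistic in either direction. Counts above 0 are in the deposited scaling, and with arrays centred on their median they were higher in some lists, from 5 to 7 of 8 for the NADH shuttles and from 4 to 6 of 9 for the regulators.

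Among other glycolysis genes, 3 of 10 lay above 0 and HKDC1, a hexokinase-like gene, had the smallest p. It stood at 10.94, 11.27 and 11.45 in control retinas 1 to 3 and at 10.30, 11.06 and 10.58 in treated ones. The groups overlap through treated retina 2, and the difference was -0.57 (SE 0.134, unadjusted p = 0.00310, adjusted p = 0.464, limma), with -0.82 and -0.70 on its other probe sets. LDHAL6A differed by -1.36, TIGAR by 0.17 and PKLR by -0.78. LDHAL6A, at 1.97 to 5.83, and PKLR, at 2.64 to 6.17, were in the dim range. SLC2A1, which encodes the glucose carrier GLUT1 of the blood-retina barrier, differed by -0.01 (SE 0.092).

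Of the genes around lactate carriers and basigin, 2 of 4 lay above 0 and none had an unadjusted p under 0.05. NXNL1, which encodes the rod-derived cone viability factor that binds basigin, differed by -0.33, SLC16A10 by -0.26, EMB by 0.39 and SLC16A9 by 0.20. Of the other pyruvate entry genes 3 of 6 lay above 0, with PDHA2 at 1.85 (unadjusted p = 0.0418, limma), DLAT at -0.21, DLD at -0.48 and PDPR at -1.03. PDHA2 stood at 2.40, 3.20 and 5.12 in control and 5.33 to 5.58 in treated retinas. Its difference thus starts from control signals in the dim range, and PDPR, at 4.26 to 6.79, was dim as well. DLD, a subunit of pyruvate dehydrogenase, was high in both eyes of animal 1 (11.41 and 11.44) and at 7.44 to 8.63 in the other retinas, the order seen for PKM.

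In the pentose phosphate list 4 of 5 lay above 0. H6PD, which makes NADPH in the endoplasmic reticulum, stood at 3.09, 3.66 and 6.22 in control and 6.21, 6.60 and 6.91 in treated retinas, a difference of 2.25 (unadjusted p = 0.00897, adjusted p = 0.630, limma) that starts from control signals in the dim range, and RBKS, PGLS and TKTL1 differed by 0.20, 0.15 and -0.31. Of the gluconeogenesis and glycogen genes 6 of 10 lay above 0, with UGP2, which makes the glucose donor for glycogen, at 0.35 (unadjusted p = 0.0186, limma), GSK3B at -0.31, PCK1 at -1.04 and PYGL at 0.17. PCK1 was dim, at 3.51 to 6.48. Of the creatine genes 2 of 5 lay above 0, with GATM, the first enzyme of creatine synthesis, at 0.26 (unadjusted p = 0.0249), CKM at -1.75, SLC6A8 at -0.33 and GAMT at 0.10.

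The shuttles that reoxidise cytosolic NADH had 5 of 8 genes above 0 and none at an unadjusted p under 0.05, with GPD1L at 0.13, SLC25A11 at -0.09, MDH2 at 0.07 and GPD1 at -0.23. Hypoxia-inducible factors drive many glycolysis genes. Of the genes of that pathway 2 of 5 lay above 0, with EPAS1, an oxygen-sensitive subunit, at -0.27 (lower in 3 of 3 pairs, unadjusted p = 0.0222, adjusted p = 0.716, limma), EGLN2 at 0.22, ARNT at -0.27 and HIF1AN at 0.26. Of their targets outside glycolysis 3 of 9 lay above 0 and none had an unadjusted p under 0.05, with P4HA1 at -0.21, CA12 at -0.32, EPO at -1.01 and DDIT4 at -0.21. EPO was dim, at 3.74 to 6.51. Of the regulators 4 of 9 lay above 0, with MYC at 0.46 and TXNIP, an inhibitor of glucose uptake, at 0.23 on its brightest probe set, both higher in 3 of 3 pairs, and PPARGC1A at -0.14 and PRKAA2 at -0.42.

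Values in these lists are those of the brightest probe set, and for several genes another probe set had the opposite sign or lay more than 1 away. TXNIP had -0.45 (lower in 3 of 3 pairs, unadjusted p = 0.0648), -0.34, 0.11 and 0.09 on its other probe sets, so its direction was not settled. SLC25A11 had 0.29 (higher in 3 of 3 pairs, unadjusted p = 0.0304), ARNT 0.81, DLAT 0.04, EGLN2 -0.11 and GPD1 0.40, each against the sign of the brightest, and PYGL had values from -0.22 to 0.19. EMB had 1.61 and GATM 1.74 on dimmer probe sets, both with the sign of the brightest, and CKM had -0.24.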

How the data were processed

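RNA from the 6 retinas was hybridised to 6 arrays, 3 treated and 3 control. The authors scaled the arrays with MAS 5.0, per the labels and the study's methods, and deposited log2 signals for 52024 probe sets; back on the linear scale the arrays' 2% trimmed means were 505.3 to 505.8. MAS 5.0 scales each array to one mean, so values are relative to the other probe sets of the array, and low signals are noisy. The number of arrays limits the precision. The list of genes, the further lists and the markers were chosen with earlier results of these data known.

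Gene symbols came from the platform annotation: 24956 probe sets had 1 symbol, 361 several and 26707 none, and 98.6% of symbols were found in the reference gene table. The log2 values were fitted by limma (version 3.58.1, under R 4.3.3) to the full table of probe sets (eBayes with trend, two-sided, Benjamini-Hochberg adjustment), with the replicate number as a block. The study's methods pair both retinas of an animal, and deviations from the group means correlated at 0.357, 0.137 and 0.161 for same-numbered retinas and at -0.24 to 0.10 for others. The p-values of the paired fit rest on how far the treated-control differences vary over 3 animals, with that spread drawn in part from other probe sets. The block removes differences in level between animals. Every measured gene of the list was named; in each further list, the 4 with the largest absolute statistic (all where 4 or fewer were measured), and also SLC2A1, named for its role. Markers were named after their values were seen. Nothing was imputed or dropped.

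The alternatives were no replicate block, each pair left out, quantile normalization, centring on the median, a mean signal of at least 5, no variance trend, the methods' paired t-test, the mean of a gene's probe sets, and values under 5 set to 5. Figures were drawn with matplotlib 3.10.9. No sequence table or genome was used here, so no sequence or coordinate is given.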

Additional observations from a re-analysis of the deposited data

How the results depend on the processing

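The 6 genes with an unadjusted p under 0.05 kept their direction under all 11 alternatives, and PDK4 kept an unadjusted p under 0.05 in each. Few of these alternatives could have reversed a direction. The estimate itself is the same without the block, without the variance trend, by the paired t-test and with the signal filter. Leaving out 1 pair cannot reverse a gene with the same sign in 3 of 3 pairs. PDK4, HK2 and TALDO1 have a single probe set, so for them only quantile normalization and centring on the median could do so. The median over the list ran from -0.0079 to 0.098, the latter with arrays centred on their median, which moved the median of all named genes from 0.032 to 0.13. Without the replicate block, an unadjusted p under 0.05 was reached by 0 genes in the higher and 1 in the lower direction. With arrays centred on their median 1 was higher and 2 lower, and without the variance trend 0 and 1. With 1 pair left out, 1 to 2 genes were higher, 2 to 4 lower, and 0 to 2 passed the adjusted threshold (SLC16A1 and SLC16A8, without pair 2). Without the block 0 of the 58 probe sets called over the whole array passed the adjusted threshold, GFAP included; no gene of the list passed it with or without the block.

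Estimates near 0 changed sign. Centring on the median gave ALDOA 0.022, CKB 0.0038, ENO1 0.016, GPI 0.077, LDHA 0.096, PFKP 0.075, PGM1 0.012, PKM 0.088 and SLC16A7 0.020. Quantile normalization gave PFKL -0.0012, PGM1 0.011 and SLC16A7 0.029, and the mean of probe sets gave ALDOC -0.079 and BSG -0.0066. With 1 pair left out, the ranges were -0.061 to 0.098 for ALDOC, -0.051 to 0.10 for BSG, -0.0037 to 0.16 for GAPDH, -0.055 to 0.0030 for GPI, -0.068 to 0.067 for HK3, -0.11 to 0.11 for LDHA, -0.15 to 0.55 for PDK1, -0.063 to 0.14 for PFKL, -0.17 to 0.14 for PFKP, -0.065 to 0.37 for PGAM2, -0.48 to 0.43 for PGM1, -0.11 to 0.084 for PKM and -0.34 to 0.19 for SLC16A7. The cause was not tested. With 3 pairs and dim probe sets, differences of the size of the SE of SLC16A7 or PGM1 could not be resolved.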
